A study of Homo sapiens with 3 samples.

Results

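Acetylation of lysine 27 on histone H3 (H3K27ac) spread over at least 3000 bp in 1365 peaks whose summits lay inside protein-coding genes of THP1 cells. These were 2.81% of the 48621 H3K27ac peaks on chromosomes 1 to 22 and X, and they are called wide intragenic peaks here. A peak was counted when its summit lay inside an hg38 protein-coding gene record and more than 2.5 kb from every protein-coding gene end, so they were chosen by measured width and summit position, and neither is a result about them. THP1 is a human monocytic leukaemia line. All libraries came from wild type THP1 cells kept for 24 h in the phorbol ester PMA, which drives them towards a macrophage-like state, and there was 1 library for H3K27ac, 1 for the deacetylase SIRT1 and 1 input, not analysed here. No library from cells without PMA was used, so nothing below is a response to PMA. With 1 library per antibody there was no replicate check, no p-value was computed, and intervals in brackets are 95% exact intervals that cover counting error only.

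H3K27ac is laid down by the acetyltransferases EP300 and CREBBP at active enhancers and promoters. Enhancers are stretches of DNA that bind transcription factors and raise transcription from a promoter that can be far away, and many lie in introns. In macrophages many enhancers carry sites of PU.1, C/EBP, RUNX and AP-1 factors, and long runs of acetylated chromatin are often found at genes of cell identity. Many genes also have a second promoter inside the gene body, and a promoter carries H3K27ac too. SIRT1 is an NAD-dependent deacetylase whose substrates include histones and transcription factors.

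Whole peak sequence was not used here, and start windows are shown because a share of the wide intragenic peaks held a transcription start. Such peaks were a minority. On the chromosomes with listed starts, 250 of 1295 (19.3%) held one, and 1034 (79.8%) held neither a listed start nor a gene end. Each window runs from 250 bases before to 50 bases after a start listed by RefSeq (GRCh38.p14) and is written from 5′ to 3′ on the strand of its gene. The first set comes from 4 of the 10 wide intragenic peaks of highest fold, and capitals mark CG dinucleotides, the sites that make up CpG islands. ZNF217 is a zinc finger protein gene, RUNX1 a transcription factor of blood cells, TAB2 an adaptor of the kinase TAK1 and LIMK1 the kinase of cofilin. Their windows lay at chr20:53593790-53594089 on the minus strand, chr21:34888650-34888949 on the minus strand, chr6:149318050-149318349 on the plus strand and chr7:74092967-74093266 on the plus strand.
ZNF217: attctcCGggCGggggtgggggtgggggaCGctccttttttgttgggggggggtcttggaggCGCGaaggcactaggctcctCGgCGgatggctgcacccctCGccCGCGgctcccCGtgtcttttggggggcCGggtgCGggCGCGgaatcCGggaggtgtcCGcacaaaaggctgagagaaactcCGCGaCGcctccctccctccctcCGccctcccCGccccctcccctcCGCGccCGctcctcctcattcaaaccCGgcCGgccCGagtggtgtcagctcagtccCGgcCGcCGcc
RUNX1: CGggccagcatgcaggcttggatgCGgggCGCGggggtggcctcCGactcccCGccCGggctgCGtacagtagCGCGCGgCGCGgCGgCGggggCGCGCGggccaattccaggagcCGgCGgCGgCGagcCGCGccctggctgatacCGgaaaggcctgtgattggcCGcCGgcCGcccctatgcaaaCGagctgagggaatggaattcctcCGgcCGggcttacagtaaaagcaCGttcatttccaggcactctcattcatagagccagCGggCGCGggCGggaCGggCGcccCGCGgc
TAB2: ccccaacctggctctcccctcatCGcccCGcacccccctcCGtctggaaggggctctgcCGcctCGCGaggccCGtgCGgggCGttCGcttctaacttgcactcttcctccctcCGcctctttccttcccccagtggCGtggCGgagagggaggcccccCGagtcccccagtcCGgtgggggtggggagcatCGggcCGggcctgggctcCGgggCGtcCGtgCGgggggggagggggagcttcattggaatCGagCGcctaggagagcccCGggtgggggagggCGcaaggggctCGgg
LIMK1: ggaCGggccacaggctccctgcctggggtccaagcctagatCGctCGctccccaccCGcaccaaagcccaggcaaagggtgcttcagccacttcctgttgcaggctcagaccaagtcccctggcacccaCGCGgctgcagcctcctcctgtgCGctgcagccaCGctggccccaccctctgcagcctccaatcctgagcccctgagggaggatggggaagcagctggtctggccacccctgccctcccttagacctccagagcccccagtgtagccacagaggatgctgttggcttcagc
The ZNF217, RUNX1 and TAB2 windows hold 31, 40 and 26 CG dinucleotides, and the LIMK1 window holds 8.

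The next set shows starts inside host genes with letters of macrophage transcription factor motifs. Capitals mark matches on either strand to TGANTCA (AP-1), GAGGAA (PU.1), TGTGGT (RUNX) and TTNNGCAA (C/EBP), and matches may overlap. RTN4 encodes the reticulon Nogo, AMPD3 an AMP deaminase and CSF1R the receptor for the macrophage growth factor CSF1. DLGAP1-AS2 is a long non-coding RNA antisense to DLGAP1. Their windows lay at chr2:55051223-55051522 on the minus strand, chr11:10455014-10455313 on the plus strand, chr5:150086505-150086804 on the minus strand and chr18:3603487-3603786 on the plus strand.
RTN4: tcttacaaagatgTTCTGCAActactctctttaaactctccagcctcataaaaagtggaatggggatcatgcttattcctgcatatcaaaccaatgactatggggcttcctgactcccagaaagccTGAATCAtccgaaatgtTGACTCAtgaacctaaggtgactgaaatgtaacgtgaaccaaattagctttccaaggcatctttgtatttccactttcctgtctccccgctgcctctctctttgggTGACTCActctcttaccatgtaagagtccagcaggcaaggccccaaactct
AMPD3: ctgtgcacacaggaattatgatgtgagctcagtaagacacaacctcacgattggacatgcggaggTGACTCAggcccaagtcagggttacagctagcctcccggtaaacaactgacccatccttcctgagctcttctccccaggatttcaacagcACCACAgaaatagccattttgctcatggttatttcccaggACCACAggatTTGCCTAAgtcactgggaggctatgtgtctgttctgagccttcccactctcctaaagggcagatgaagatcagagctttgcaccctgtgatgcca
CSF1R: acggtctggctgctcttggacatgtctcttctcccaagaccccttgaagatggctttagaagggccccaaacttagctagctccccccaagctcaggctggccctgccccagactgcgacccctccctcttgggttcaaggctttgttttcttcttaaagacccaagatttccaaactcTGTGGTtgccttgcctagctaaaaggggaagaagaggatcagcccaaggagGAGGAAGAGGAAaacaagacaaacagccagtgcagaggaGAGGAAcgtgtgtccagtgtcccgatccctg
DLGAP1-AS2: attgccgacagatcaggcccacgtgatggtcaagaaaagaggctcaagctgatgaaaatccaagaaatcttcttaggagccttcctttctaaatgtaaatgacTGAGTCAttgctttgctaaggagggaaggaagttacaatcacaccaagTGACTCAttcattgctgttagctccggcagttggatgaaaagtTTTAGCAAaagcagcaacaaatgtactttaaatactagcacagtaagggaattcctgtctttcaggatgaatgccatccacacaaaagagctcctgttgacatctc
The RTN4 window holds 3 matches to AP-1 and 1 to C/EBP. The AMPD3 window holds 1 to AP-1, 2 to RUNX and 1 to C/EBP. The CSF1R window holds 3 matches to PU.1 and 1 to RUNX. The DLGAP1-AS2 window holds 2 matches to AP-1 and 1 to C/EBP. A match is a string of letters and not a measured binding site. These windows were chosen after their matches were seen and are not typical. Taking the start nearest the summit in each peak, the AP-1 letters were found in 11.3% of protein-coding and 19.8% of long non-coding RNA windows. The C/EBP letters were found in 11.3% and 11.6%, the RUNX letters in 14.8% and 8.14%, and the PU.1 letters in 33.0% and 29.1%.

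Some of these peaks held microRNA hairpins, and mature forms chosen after their values were seen are given with the seed (bases 2 to 8) in capitals. MIR21 lies at the end of VMP1, an autophagy gene, and MIR200C and MIR141 lie downstream of PTPN6, the phosphatase SHP-1 of blood cells. MIR7845 lies in KLF7 and MIR4466 in ARID1B, a subunit gene of the BAF remodelling complex. The mature sequences are RefSeq's.
hsa-miR-21-5p: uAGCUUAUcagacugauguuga
hsa-miR-200c-3p: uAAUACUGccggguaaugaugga
hsa-miR-141-3p: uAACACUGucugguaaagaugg
hsa-miR-7845-5p: aAGGGACAgggagggucgugg
hsa-miR-4466: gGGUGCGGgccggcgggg
Of 1558 listed hairpins, 20 lay inside 18 wide intragenic peaks, a class that covered 7.04 Mb. Wide peaks at gene ends held 35 in 6.28 Mb, and wide peaks between genes held 12 in 5.30 Mb. The hairpins in wide intragenic peaks had 24 mature forms with 24 distinct seeds. The peak over MIR21 (chr17:59835978-59843780) was 7803 bp wide with a fold of 50.8, and the peak over MIR200C and MIR141 (chr12:6950514-6965136) was 14623 bp wide with a fold of 66.4. Both of these peaks reached across an end of their gene. A peak over a hairpin says nothing of the level of the microRNA, which was not measured.

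The fold is the authors' ratio of the fragments at a summit to the local background, and it describes peaks within the H3K27ac list. The wide intragenic peaks had a median fold of 26.0 (middle 50% from 17.6 to 40.6) and ran from 4.92 to 159. Wide peaks at gene ends had a median of 41.2, wide peaks between genes 26.7 and narrower peaks inside genes 5.22. The number of DNA fragments at the summit, recovered from the deposited values, had a median of 70 in wide intragenic peaks, 144 in wide peaks at gene ends, 71 in wide peaks between genes and 12 in narrower intragenic peaks. Intragenic wide peaks were thus placed by these medians beside wide peaks between genes and under wide peaks at gene ends. Their lowest −log10 q was 7.39, so each lay well past a q of 0.05. The width of a called peak is not independent of its signal. The differences from narrower peaks in fold, fragments and q are therefore tied to the choice by width. The median background at the summit, in units of the lowest background of the list (the floor, 0.937 fragments), was 1.73 in wide intragenic peaks, 2.48 in wide peaks at gene ends, 1.73 in wide peaks between genes and 1.38 in narrower intragenic peaks. The part of background in the differences of fold was not tested.

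The median wide intragenic peak was 4216 bp wide, and 486 (35.6%) reached 5000 bp, 70 (5.13%) reached 10000 bp and 4 reached 20000 bp. Together they covered 7.04 Mb, or 12.1% of the H3K27ac length on these chromosomes. They were rarely alone. Another H3K27ac peak lay within 10 kb of 1219 of them (89.3%), against 82.2% of narrower intragenic peaks, and another wide intragenic peak lay within that distance of 301 (22.1%). At the width threshold the peaks just inside lay in ZEB2 (3000 bp, fold 13.9), ACSL5 (3000 bp, fold 22.4) and MICAL1 (3001 bp, fold 21.4), and those just outside in CUX1 (2999 bp, fold 11.2), RAD51B (2998 bp, fold 10.7) and PDPN (2997 bp, fold 13.9). At the distance threshold the summits just inside lay in SIPA1 (2521 bp from a gene end, fold 41.7), TMEM184B (2532 bp, fold 21.7) and ARRDC3 (2539 bp, fold 71.0). Those just outside were at PPP1R18 (2491 bp, fold 12.4), S100A16 (2485 bp, fold 11.8) and BCL2A1 (2481 bp, fold 11.1).

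**Figure D1:**
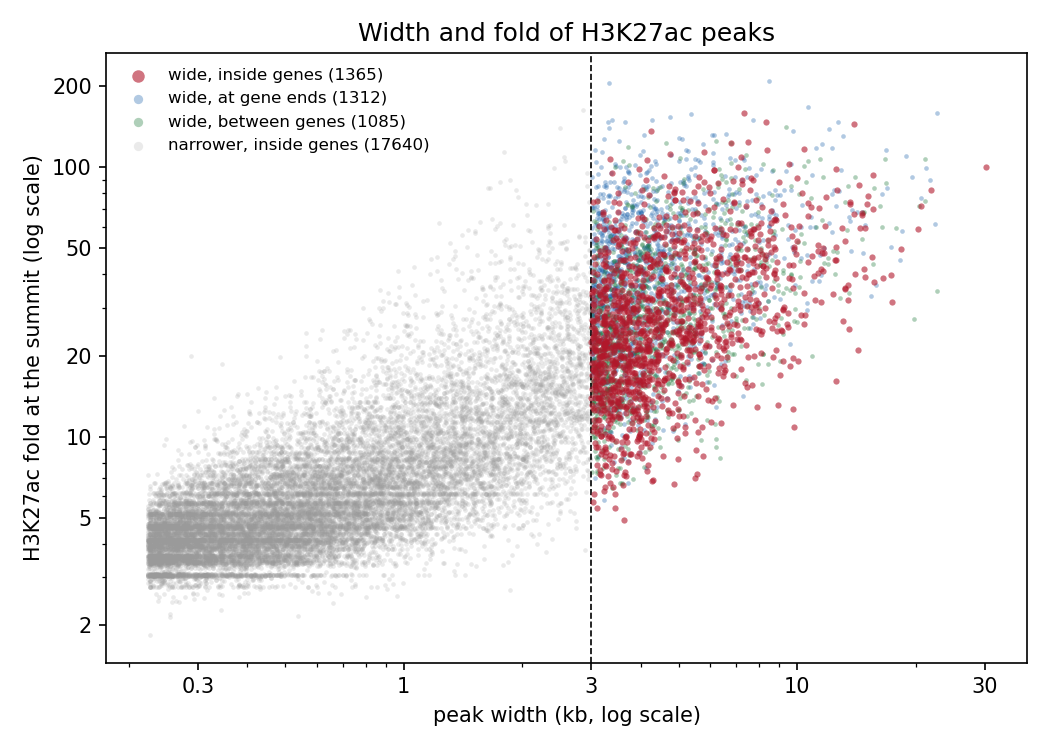
Peak width in kb against H3K27ac fold over background at the summit, both on log axes, 1 point per peak, for wide peaks inside genes (red), at gene ends (blue) and between genes (green) and for narrower peaks inside genes (grey). The dashed line is the width threshold of 3000 bp, and the median fold is 26.0 in red, 41.2 in blue, 26.7 in green and 5.22 in grey points. The gap to the grey points is tied to the choice by width.

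A wide peak inside a gene need not be an enhancer, so the peaks were set against annotated starts. On the chromosomes with listed starts, 250 of 1295 wide intragenic peaks (19.3%, 17.2 to 21.6) held at least 1 listed start, beside 13.4% of all H3K27ac peaks. The share was 75.6% for wide peaks at gene ends, 12.1% for wide peaks between genes and 3% for narrower intragenic peaks. A start counted only when its whole window lay in the peak, and narrower peaks leave less room for one. Counted within 2.5 kb of the summit instead, a listed start was found for 236 of 1295 wide intragenic peaks (18.2%). The same count gave 1645 of 16907 narrower intragenic peaks (9.73%). A protein-coding start lay in 203 (15.7%) and the start of a long non-coding RNA in 86 (6.64%). Of the 305 protein-coding start windows inside, 301 belonged to the gene that held the peak. The start itself lay more than 1 kb inside the outermost start of that gene in 277 of these (92.0%) and within 1 kb of it in 24. The rule leaves out summits within 2.5 kb of gene ends, so this split is largely set by the choice of peaks. Neither a listed start nor a gene end was found in 1034 wide intragenic peaks (79.8%, 77.6 to 82.0). Starts are not listed for every gene, and 189 of the 1295 peaks lay in a gene with none, so 19.3% is a lower limit and 79.8% an upper one. Among the 1106 peaks in genes with a listed start, 240 (21.7%) held a listed start and 859 (77.7%) neither a start nor a gene end. Enhancer activity was not measured, and a peak without a listed start is not shown to be an enhancer. A gene end was covered by 46 peaks (3.37%) although their summits were farther away, and 1321 (96.8%) lay wholly inside the gene record.

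Peaks with a start or gene end had higher H3K27ac. Their median fold was 35.4, against 24.3 in peaks with neither, and their median width was 4740 bp, against 4126 bp. With the wide intragenic peaks cut into 5 equal groups from the lowest to the highest fold, a listed start was held by 24, 28, 46, 53 and 99 of 259 peaks each, or 9.27%, 10.8%, 17.8%, 20.5% and 38.2%. The highest group had folds of 45.4 to 159 and the lowest 5.43 to 15.9. In 5 groups by width the shares were 15.1%, 13.9%, 20.8%, 18.5% and 28.2%, which did not climb at every step. Width and fold were not separated here, and peaks with a start or gene end were both wider and higher.

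**Figure D2:**
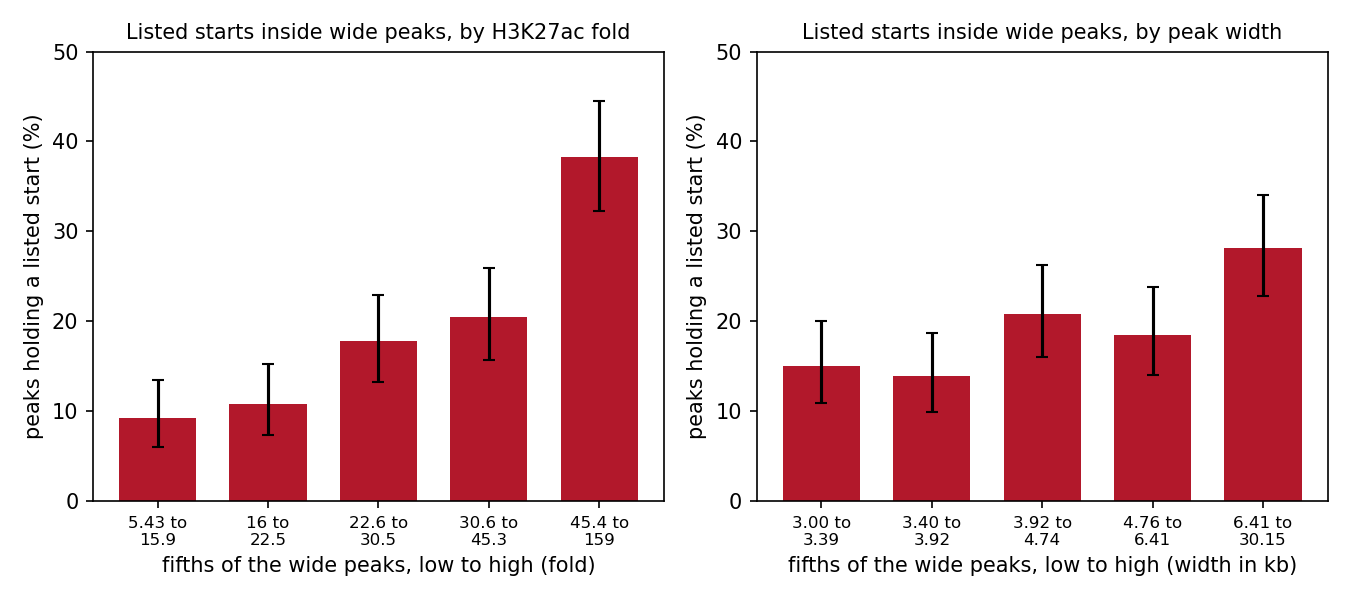
Percent of wide intragenic H3K27ac peaks that hold a listed transcription start, with 95% exact binomial intervals, in 5 equal groups by fold (left) and by width (right), low to high. By fold the share was 9.27% in the lowest group and 38.2% in the highest, and by width 15.1% and 28.2%.

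The 10 wide intragenic peaks of highest fold included 8 with a listed start. PTPA, which encodes an activator of the phosphatase PP2A, had the highest, at chr9:129137197-129144514, with a fold of 159 on 325 fragments and no listed start. ZNF217 followed at chr20:53588674-53596994 with 147 on 403 fragments, and the window printed above lies inside it. The third, at chr2:144511746-144525681, covered the start of ZEB2, a transcriptional repressor needed in macrophages, and those of ZEB2-AS1 and LINC01412, with a fold of 145 on 344 fragments. TAB2 had 136 on 356 fragments at chr6:149316274-149320535, 100.1 kb from the outermost start of the gene. LIMK1 had 124 on 284 fragments at chr7:74091226-74098705. The printed TAB2 and LIMK1 windows lie inside these peaks. SETD1B, a histone H3K4 methyltransferase gene, had 123 on 401 fragments at chr12:121798827-121805600, over the start of LINC01089. No start of SETD1B is in the table used here, so whether this peak holds one was not tested.

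RUNX1 had a fold of 117 on 270 fragments at chr21:34881174-34891600, over the internal start whose window holds 40 CG dinucleotides, and its summit lay 160 kb from the outermost start. A second RUNX1 peak of 15598 bp, at chr21:34832191-34847788, held the start of RUNX1-AS1 and had a fold of 69.8. The 2 other wide peaks in RUNX1 had no listed start, with folds of 29.5 and 7.61. CSF1R carried 2 wide peaks. The stronger, at chr5:150062765-150071144, had a fold of 116 on 340 fragments and no listed start, and the other, at chr5:150079132-150087183, had 49.2 on 109 fragments and held the start printed above. SATB1, a chromatin organiser, had 114 on 262 fragments over an internal start, and UBE2D3, a ubiquitin-conjugating enzyme gene, had 112 on 365 fragments over 5 of its own starts and that of UBE2D3-AS1.

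Of the 10 widest, 4 held a listed start. The widest ran for 30146 bp in LOC124905135 at chr22:46052155-46082300, with a fold of 101, over its start and those of LINC02939 and PRR34-AS1. A peak of 21915 bp lay in ZMIZ1, a coregulator of the PIAS family, at chr10:79280708-79302622, with a fold of 82.3; no start of ZMIZ1 is in the table used here, so whether this peak holds one was not tested. CXXC5, a CXXC zinc finger gene, had 20661 bp and a fold of 71.8, and TEX264, a receptor for autophagy of the endoplasmic reticulum, had 20253 bp and 59.2. The peaks of TBC1D1 (18405 bp, fold 49.6), the cell cycle kinase CDK6 (17435 bp, 31.7), FNDC3B (17339 bp, 39.9), CDK5RAP2 (16516 bp, 38.7) and the annexin ANXA11 (15657 bp, 37.4) held no listed start. Width and fold thus picked largely different peaks, with RUNX1 the gene in both sets, through different peaks.

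Start windows are promoter sequence by definition, so their base composition was only compared between sets. Protein-coding starts inside wide intragenic peaks had somewhat fewer CG dinucleotides than those of wide peaks at gene ends. They had about as many as all listed protein-coding starts. Taking the protein-coding start nearest the summit in each of the 203 peaks, the median window had 64.7% G or C and 20 CG dinucleotides. The 923 windows of wide peaks at gene ends had medians of 68.0% and 29, and all 22132 listed protein-coding windows 62.3% and 21. The AP-1 letters were found in 11.3% of the 203 (7.32 to 16.5), in 5.31% of the 923 (3.95 to 6.96) and in 6.15% of all protein-coding windows. The PU.1 letters were found in 33.0%, 31.5% and 27.9% of these sets, the RUNX letters in 14.8%, 8.56% and 11.3%, and the C/EBP letters in 11.3%, 5.85% and 8.69%. For long non-coding RNA starts the AP-1 letters were found in 19.8% of the 86 nearest windows (12.0 to 29.8) and in 10.3% of all 12829 listed windows. The PU.1 letters were found in 29.1% and 27.7% of these sets, the RUNX letters in 8.14% and 16.2%, and the C/EBP letters in 11.6% and 13.5%. Base composition differed between these sets too, with a median of 58.8% G or C in the 86 windows and 50% over all listed long non-coding RNA windows, and its part in the shares of motifs was not tested.

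The wide intragenic peaks lay in 922 genes, 5.48% of the 16813 protein-coding genes longer than 5000 bp, the length below which no summit can meet the rule. Of these, 677 held 1 such peak, 245 held at least 2, 109 at least 3 and 21 at least 5. A single peak in the clustered protocadherin gamma genes lay in 22 overlapping records, and counting only the longest record for each peak gave 883 genes. Long genes were more often hosts. The share was 1.49% of genes of 5 to 20 kb, 4.58% at 20 to 50 kb, 7.19% at 50 to 100 kb, 11.5% at 100 to 200 kb, 13.7% at 200 to 500 kb and 11.8% above 500 kb. Per Mb of gene record the order was not the same, with 1.23, 1.67, 1.40, 1.34, 0.925 and 0.283 peaks in these classes. The median host was 83.1 kb long, against 32.7 kb over all genes above 5000 bp.

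LPP, which encodes a LIM domain protein of focal adhesions, held the most, with 21 wide peaks that together covered 130332 bp. They lay between 119 and 667 kb from the start of a gene of 738 kb on chromosome 3, with folds of 8.93 to 66.8 and a median of 38.8. The gene held 119 H3K27ac peaks in all. ZMIZ1 held 12 of its 69 peaks as wide ones, with folds of 7.43 to 93.3. RAPGEF1, an exchange factor for the small GTPase RAP1, also held 12, of 34, with folds of 11.7 to 86.2. In CPQ, a carboxypeptidase gene on chromosome 8, there were 10 of 46, and in TNS3, a tensin that ties integrins to actin, 10 of 49.

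ETV6, an ETS family repressor of blood cells, held 9 wide peaks of 53, with folds of 7.23 to 41.8, so that many moderate peaks and no very high one made up its total. ARHGAP26, a GTPase-activating protein for RHOA, held 8 of 77. MBP, the myelin basic protein gene, whose longer golli forms are used in immune cells, held 8 of 28, with a highest fold of 91.9. CYP19A1, the aromatase gene, held 7 of 27 and CHST11, a chondroitin sulfotransferase gene, 7 of 47. These 10 genes together held 104 of the 1365 wide intragenic peaks (7.62%).

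**Figure D3:**
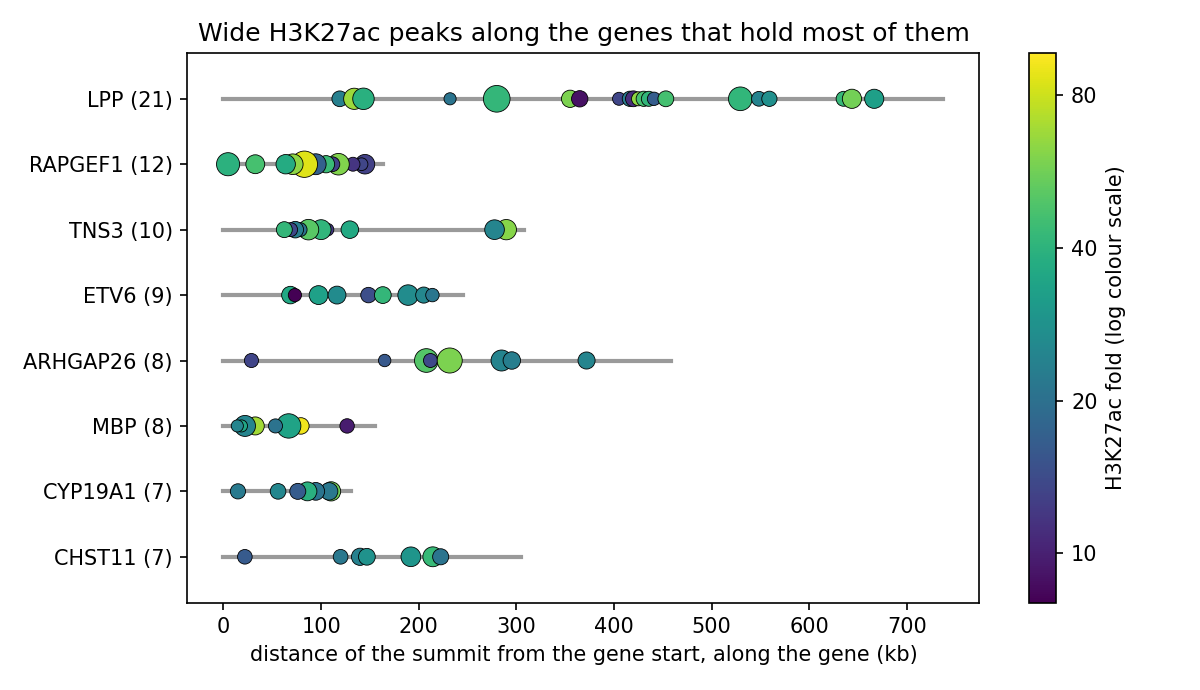
Distance in kb of the summit of each wide intragenic H3K27ac peak from the gene start, in the 8 of those 10 genes whose strand is listed; grey lines are the gene records, colour is the fold on a log scale and larger circles are wider peaks. LPP has 21 peaks at 119 to 667 kb with folds up to 66.8, and MBP has 8 with a fold up to 91.9.

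Host genes often had an H3K27ac peak at their start. This can be the wide intragenic peak itself, since 46 of these covered a gene end, and such hosts were not set apart. An H3K27ac peak lay within 1 kb of the outermost start in 572 of 756 hosts with a known strand (75.7%, 72.4 to 78.7), in 58.7% of the other genes longer than 5000 bp, and in 59.6% of all. In 1106 wide intragenic peaks with a known host strand, the summit lay a median of 44.4 kb from the host's start (middle 50% from 15.8 to 109 kb). Within 10 kb of it lay 170 (15.4%), and beyond 100 kb lay 304 (27.5%). They were spread along the gene, with 21.9%, 28.8%, 27.6% and 21.7% in 4 equal stretches of the gene from start to end, against 26.0%, 27.1%, 25.2% and 21.7% of narrower intragenic peaks. The median relative position, on a scale with 0 at the start and 1 at the end, was 0.495 in wide and 0.469 in narrower intragenic peaks. Regions within 2.5 kb of the ends are left out of both sets by the rule.

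Genes of the macrophage and signalling lists were often hosts. Of 179 genes in 9 lists of macrophage and signalling genes that were long enough, 69 held a wide intragenic peak (38.5%, 31.4 to 46.1), whereas 6 of 114 genes in 6 lists of other cell types did (5.26%, 1.96 to 11.1). All genes of the same length classes gave 7.67% for the first lists and 7.71% for the others. The lists were drawn up with earlier results of these data known, so these shares are a description and not a test. Leaving out the 15 genes that those results had named left 62 hosts among 165 list genes. It does not remove that knowledge from the choice of the other genes.

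Transcription factors of blood cells had 11 hosts of 20, beside 9.80% of genes of like length. ETV6 held 9 peaks, RUNX1 held 4 and ZEB2 held 3, with highest folds of 41.8, 117 and 145. RUNX2, a relative of RUNX1, had 3 with a highest fold of 44.4, TFEB, a regulator of lysosome genes, had 1 of 60.3, and BCL6, a repressor of inflammatory genes, had 1 of 48.0. Macrophage receptors had 6 hosts of 20, beside 5.59%. After CSF1R came the Fc gamma receptor FCGR1A at 25.7, the integrin chains ITGAX at 18.1 and ITGB2 at 15.3, the CD47 receptor SIRPA at 17.8 and the efferocytosis receptor MERTK at 16.0, with 1 peak each. Apart from CSF1R, these receptors all lay below the median fold of wide intragenic peaks.

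Actin and adhesion genes had 13 hosts of 20, the largest share of the 15 lists, beside 8.40% of genes of like length. The interval of this share (40.8% to 84.6%) overlaps that of regulators of small GTPases (36.1% to 80.9%). MYH9, the heavy chain of non-muscle myosin, held 4 peaks with a highest fold of 51.6. MYO1E, a class I myosin, and LYN, a SRC family kinase, also held 4 each, at 36.9 and 35.6. The actin cross-linker ACTN1 held 2 at 47.1 and the formin DIAPH1 1 at 45.8. Regulators of small GTPases had 12 hosts of 20, beside 11.2%. RAPGEF1 and ARHGAP26 led, with DOCK5, an exchange factor for RAC, at 4 peaks and 41.6, ASAP1, a GTPase-activating protein for ARF, at 3 and 88.5, and DOCK8, an exchange factor for CDC42, at 2 and 68.6.

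Chromatin regulators had 7 hosts of 20, beside 8.52%. ZMIZ1 led, followed by the histone demethylase KDM2B with 4 peaks and a highest fold of 59.6, the deacetylases HDAC5 and HDAC9 with 3 each at 43.7 and 38.6, and the H3K79 methyltransferase DOT1L with 3 at 36.6. Lipid and cholesterol genes had 6 of 20, beside 6.65%. The nuclear receptor PPARG held 4 at 25.4 and its partner RXRA 4 at 16.2, while PPARD held 1 at 60.3, NR1H3, the oxysterol receptor LXR alpha, 2 at 58.6, and the cholesterol exporter ABCA1 2 at 45.2. PPARG and RXRA had many peaks of low fold, PPARD a single high one.

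NF-kB and inflammation genes had 5 of 20, beside 4.69%, led by TNIP1, a brake on NF-kB, with 4 peaks and 73.5. Then came the IRAK family genes IRAK3 with 3 and 45.3 and IRAK2 with 2 and 53.5. Genes of protein kinase C, RAS and MAP kinase signalling, the route PMA acts on, had 5 of 19, beside 7.21%. They were RASA3 with 2 at 54.1, and PRKCD at 40.4, DUSP4 at 38.0 and PRKCA at 26.8 with 1 each, and PRKCH with 1 at 20.02. Lysosome and autophagy genes had 4 of 20 (20%, 5.73 to 43.7), an interval that includes the 6.96% of genes of like length. Their hosts were ATG7 at 75.6, the cargo receptor SQSTM1 at 53.9, the mTORC1 subunit RPTOR at 50.3 and the proton pump subunit ATP6V0A1 at 36.4.

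Of the marker lists of other cell types, T and NK cell genes had 0 hosts of 20 and epithelial genes 0 of 18. B cell genes had 2 of 18, EBF1 with 2 peaks and a highest fold of 18.7 and AFF3 at 8.62. Erythroid genes had 2 of 18, BCL11A at 12.8 and SLC25A37 at 10.2. The long neuronal genes had 1 of 20, KCNIP4 at 10.3. These 5 genes all lay below the median fold of 26.0. The hepatocyte list had 1 of 20, the sugar kinase FGGY, with 5 peaks and a highest fold of 51.7.

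**Figure D4:**
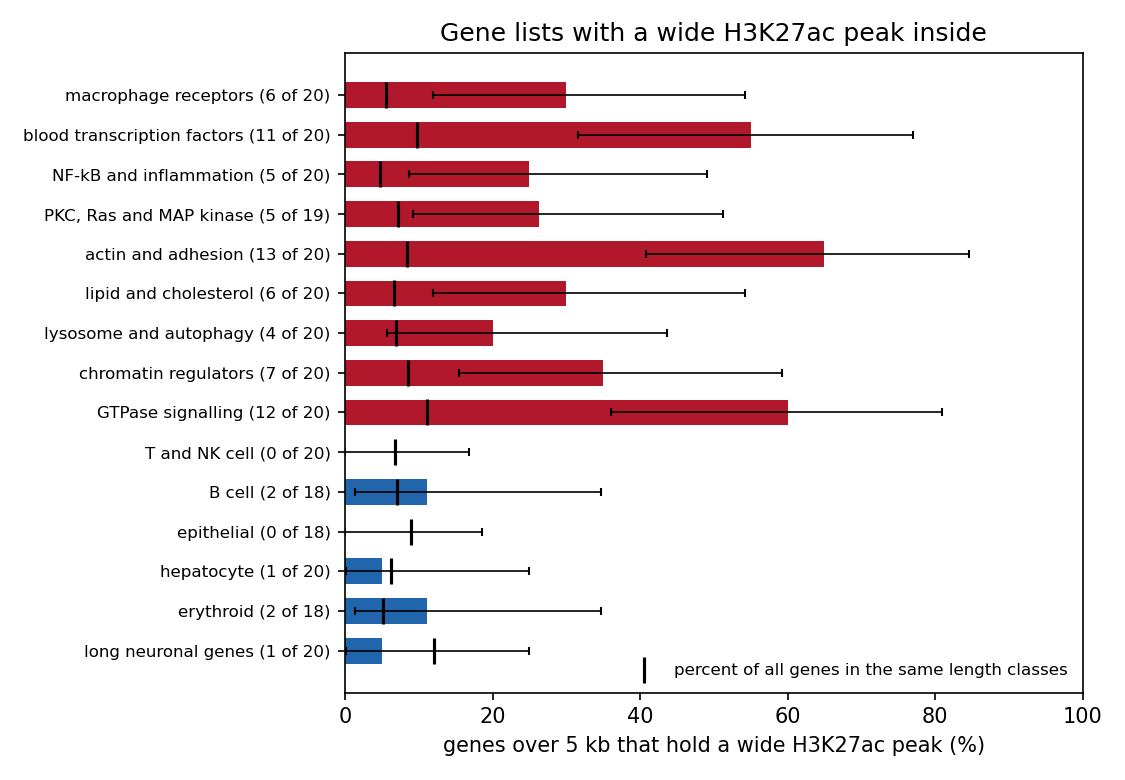
Percent of the genes of each list that hold a wide intragenic H3K27ac peak, with 95% exact binomial intervals, for 9 lists of macrophage and signalling genes (red) and 6 lists of other cell types (blue); upright marks give the percent of all genes in the same length classes. Actin and adhesion genes reach 13 of 20, and T and NK cell and epithelial genes have 0.

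SIRT1 was mapped in the other library and took no part in choosing the peaks. A SIRT1 peak overlapped 52 wide intragenic peaks by at least 1 base, or 3.81% (2.86 to 4.97), beside 1.45% of all H3K27ac peaks. The share was 2.59% (1.80 to 3.60) in wide peaks at gene ends, 2.76% (1.87 to 3.92) in wide peaks between genes and 1.58% in narrower intragenic peaks. Wide peaks offer more bases for an overlap, so SIRT1 summits were also counted per Mb. There were 7.25 per Mb of wide intragenic peak (5.40 to 9.53, 51 summits) and 15.4 in narrower intragenic peaks (13.4 to 17.6). Wide peaks at gene ends had 4.94 per Mb (3.36 to 7.01) and wide peaks between genes 5.09 (3.36 to 7.41). In share and in rate, the intervals of these other wide peaks overlap those of wide intragenic peaks. By length the order of the wide and narrower intragenic peaks was thus turned round.

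The surroundings of the wide intragenic peaks held more SIRT1 summits than the peaks. Outside all H3K27ac peaks there were 14.9 per Mb up to 5 kb away, 23 at 5 to 20 kb, 26.8 at 20 to 50 kb, and 32.9 (32.6 to 33.2) in protein-coding gene records as a whole. With SIRT1 peaks on at least 4 fragments the values were 1.71 per Mb (0.881 to 2.98, 12 summits) in the wide intragenic peaks and 4.87 (4.75 to 4.99) in gene records outside H3K27ac peaks. The count was also split by the background at the H3K27ac summit. There were 9.15 SIRT1 summits per Mb (5.80 to 13.7) in the 513 wide intragenic peaks of up to 1.5 floors. The 692 from 1.5 to 3 floors had 7.56 (5.02 to 10.9), an interval that overlaps the former. The 160 above 3 floors, which covered 0.819 Mb, had 0 (up to 4.50). The part of background in the result was not tested.

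**Figure D5:**
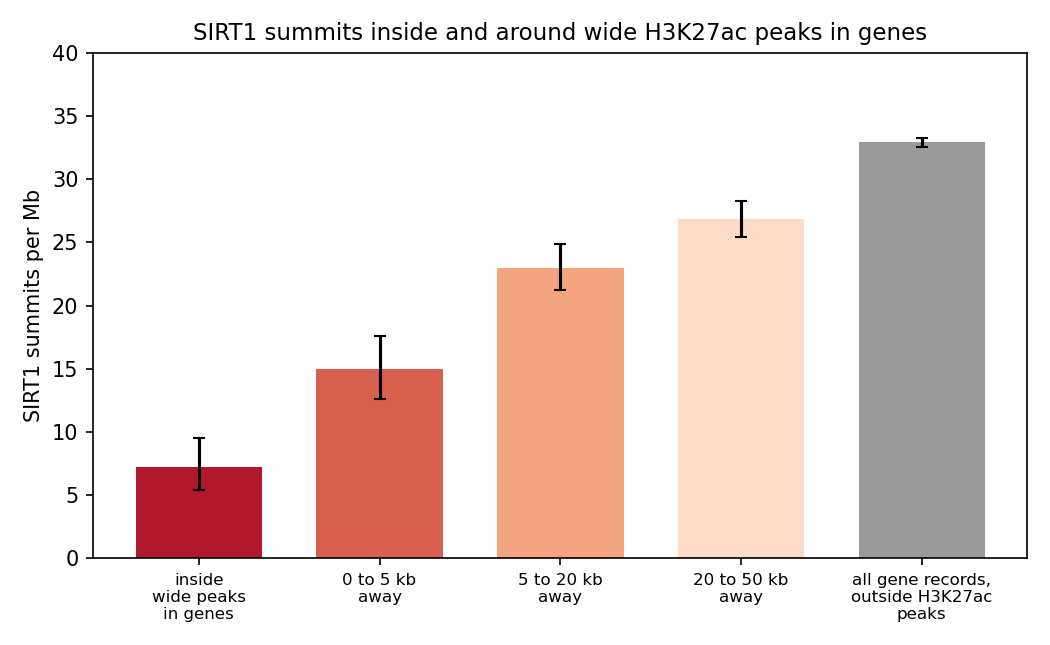
SIRT1 summits per Mb with 95% exact Poisson intervals inside wide intragenic H3K27ac peaks, in rings around them outside all H3K27ac peaks, and in all protein-coding gene records outside H3K27ac peaks. The rate is 7.25 inside the wide intragenic peaks, 14.9 within 5 kb of them and 32.9 in gene records outside H3K27ac peaks.

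The SIRT1 peaks at wide intragenic peaks were weak, as was the SIRT1 list as a whole. Of the 55 that overlapped, 42 (76.4%) rested on 2 or 3 fragments, against 84.3% of all SIRT1 peaks. A q of 0.05 was reached by 0 of the 55, which allows a share of up to 6.49%, and by 135 of all 95225 SIRT1 peaks (0.142%). Their folds, relative to the background of the SIRT1 library, ran from 2.09 to 4.20 with a median of 2.86, against 2.78 over the whole SIRT1 list. The highest lay in TTC7A, a scaffold of a phosphoinositide kinase, with 4.20 on 6 fragments and a −log10 q of 0.614. POU2F2, the octamer factor OCT2, had 4.03 on 5 fragments, UPF1, the helicase of nonsense-mediated decay, 3.67 on 4, and ZMIZ1 and ZEB2 3.59 on 4 each. The ZEB2 one lay in the neighbouring peak at chr2:144508221-144511472 and not in the stronger one over the start.

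SIRT1 peaks overlapped 5 of 261 wide intragenic peaks with a start or gene end (1.92%, 0.625 to 4.41) and 46 of 1034 with neither (4.45%, 3.28 to 5.89), and these intervals overlap. Wide intragenic peaks with SIRT1 had a median H3K27ac fold of 23.7, a width of 4544 bp and a background of 1.55 floors. Those without had 26.1, 4204 bp and 1.73 floors.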

How the data were processed

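ChIP-seq peak lists for H3K27ac and SIRT1, 1 library each, were used. The tools were MACS2 and deepTools and the build hg38, per the submitters' processing notes. Not given in the sources used here were the versions, the aligner and the control. Peak names carry a duplicate-marking label. The fold of each summit, a ratio to local background, was deposited by the authors, as were −log10 p, −log10 q and a score, which was not used.

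Fragments and background at each summit were solved from the deposited fold and −log10 p under the peak caller's Poisson model, in which the fold adds 1 to fragments and to background. This gave whole numbers within 0.01 of −log10 p for 99.998% of H3K27ac and 100% of SIRT1 peaks, and it was tested on simulated data. The lowest background was 0.937 and 0.362 fragments. Total reads are unknown. Median depth at the summit was 15 fragments for H3K27ac and 3 for SIRT1.

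Gene records, start windows and microRNAs came from RefSeq GRCh38.p14 tables. Starts are not listed for every gene, and the 70 wide intragenic peaks on chromosome 8 were left out of shares of starts. Intervals are 95% exact binomial or Poisson. Members and gene lists were chosen with earlier results of these data known. Named are the 10 highest folds, 10 widest, 10 genes with most peaks, up to 3 genes per list, the 5 highest SIRT1 folds and the peaks at thresholds; further genes, the printed sequences and the microRNAs were chosen after their values were seen. Peak sequence was not used here. Software was matplotlib 3.10.9, scipy 1.17.1, pandas 2.3.3 and numpy 2.4.6 under Python 3.11.15.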

Additional observations from a re-analysis of the deposited data

Results flagged for a closer look

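A signal lay outside the chromosomes that the comparisons used. In all, 65 H3K27ac peaks of at least 3000 bp lay outside chromosomes 1 to 22 and X, of which 26 were on alternate contigs of chromosome 6 and 3 on chromosome Y. They were not placed in genes here.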

How the results depend on the processing

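Of 53 alternative values, 43 stayed within 1.5 times a reported count or within the counting interval of a reported share or rate, and 10 moved past it. A width of at least 2000 bp gave 2629 peaks in 1561 genes and 11 genes of other cell types. A width of at least 4000 bp gave 780 peaks in 530 genes and 2 such genes. SIRT1 peaks with a fold of at least 4 overlapped 0.147% of the wide intragenic peaks, with 0.284 summits per Mb. SIRT1 peaks on at least 4 fragments, a setting chosen after seeing the data, overlapped 0.879%, with 1.71 per Mb. Each of these settings keeps more or fewer peaks by construction. Under the settings within bounds, which varied the distance to gene ends, the kind of gene record, the q and the required overlap or left out peaks with starts, there were 1014 to 1579 peaks in 622 to 1095 genes. Over all settings within bounds SIRT1 overlapped 3.16% to 4.45%, at 6.37 to 8.96 summits per Mb, and 56 to 85 macrophage and signalling list genes were hosts. The required overlap does not apply to summits per Mb. Peak centres in place of summits gave a relative position of 0.498. The alternatives on GC and motifs of whole peaks were not run, since no genome sequence was used here. No paired analysis was possible because there was 1 library per antibody. The number of fragments limits the SIRT1 peaks, and 1 library, 1 cell line and the absence of cells without PMA from the comparison limit all results.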

Other observations

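Some genes held wide intragenic peaks with no H3K27ac peak within 1 kb of their outermost start. This was the less common case. Such a peak at the start was found in 572 of 756 hosts with a known strand (75.7%), against 58.7% of other genes longer than 5000 bp. It can be the wide intragenic peak itself. Of the hosts without a peak at the start, 31 held at least 2 wide intragenic peaks, beside 245 over all hosts, strand known or not. CYP19A1, the aromatase gene, which is known for alternative promoters, held 7, between 14.8 and 110 kb from that start. SGK1, a kinase induced by serum and glucocorticoids, held 4, and the strongest, at chr6:134169842-134179382 with a fold of 103 on 336 fragments, covered an internal start, with its summit 143 kb away from the outermost one. MSN, which encodes the actin linker moesin, held 4 between 79.6 and 110 kb, and the strongest, with a fold of 45.9 on 164 fragments, covered an internal start. RUNX2 held 3 between 95.3 and 117 kb, with folds of 22 to 44.4. RBPJ, the DNA-binding partner of Notch, held 3 with a highest fold of 89.6.

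DLGAP1, a gene of neuronal synapses, held 3 wide peaks at 803 to 860 kb from its start, with folds of 27.7 to 91.0. These peaks covered the starts of the long non-coding RNAs DLGAP1-AS1, DLGAP1-AS2 and DLGAP1-AS6, 1 in each, so here the gene that held the peaks was not the gene whose listed start they covered. By chromosome, wide intragenic peaks made up from 1.41% of the H3K27ac peaks on chromosome X (19 of 1349) to 3.97% on chromosome 9 (82 of 2066). The 10 wide peaks of CPQ on chromosome 8 had folds of 14.4 to 67.6.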
